A study of Mus musculus with 9 samples.

Results

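The amino acid response genes controlled by the transcription factor ATF4 were followed in cultured mouse spermatocytes. The set was defined as 36 gene symbols, matched by name to the deposited count table, which holds 49216 genes with counts. All 36 symbols were found, in 37 entries, because Ddit3 has a second entry (ENSMUSG00000116429) that held 0 counts in all 9 libraries and is not considered further. Of the 36 genes, 33 had enough counts to be tested, and Cebpb, Trib3 and Slc7a3 did not. The cells were pachytene and diplotene spermatocytes of C57Bl mice, sorted from enzyme-digested testes of a transgenic line that carries tdTomato under a promoter specific to germ cells, then cultured. There were 3 groups with 3 libraries each, lettered A, B and C. The octyl-L2HG group received octyl-L2HG at 0.3 mM together with oxamate at 24 mM, the oxamate group received 24 mM oxamate, both for 48 h, and the untreated group received neither agent. Oxamate is a pyruvate analog that inhibits lactate dehydrogenase, an enzyme that can also make L-2-hydroxyglutarate (L2HG), and the octyl ester of L2HG carries that metabolite across the cell membrane. No group received octyl-L2HG alone or another octyl ester, so effects of L2HG and of the ester cannot be told apart. The labels give no culture time for the untreated cells, so in every comparison with them treatment and time in culture cannot be told apart. They also do not say whether libraries came from separate animals or cultures, so p-values measure only how these libraries spread, and that spread may be technical.

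ATF4 is a basic leucine zipper factor whose protein is made when the kinases GCN2, PERK, HRI or PKR phosphorylate the initiation factor eIF2. GCN2 does so when uncharged tRNAs accumulate, and the ATF4 protein then switches on genes for amino acid uptake, amino acid synthesis and tRNA charging, together with regulators that restrain the response. Much of the control of ATF4 is at translation, which counts of Atf4 transcripts do not measure. ATF4 binds with a C/EBP partner to composite elements that join a C/EBP half-site to an ATF half-site. ATF4 can also be activated by stresses other than amino acid shortage.

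The letters searched were TGATGNAA, the core of the C/EBP-ATF composite element, on both strands, in windows from 250 bases before to 50 bases after each RefSeq start (build GRCm38.p6). The search found it in 10 of the 30 members that have a window, or 33.3%, against 4.51% of 27025 genes. The letters TGACGTCA, the palindromic cAMP response element, were in the windows of 0 of the 30 members, against 2.03% of genes. The core lay in the windows of Aars, Asns, Chac1, Gars, Nupr1, Pycr1, Slc7a11, Trib3, Vldlr and Yars, and both Aars and Slc7a11 had a pair of matches. Some ATF4 targets became known through such elements, the human ASNS promoter among them, so the share is not independent of the choice of genes. Calls here are those of the main limma-voom fit, without the letter block and the other alternatives described below. Sequences follow for members whose counts moved in opposite directions (Asns against Chac1, Pycr1 and Slc7a11) and for a pair not called (Gars and Yars). Each is 28 bases read 5′ to 3′ on the strand where the core reads TGATGNAA, with the core in capitals and its position in the line.
Asns, chr6:7693225-7693232, minus strand: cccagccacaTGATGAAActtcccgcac
Chac1, chr2:119351049-119351056, minus strand: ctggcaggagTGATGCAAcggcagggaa
Pycr1, chr11:120643844-120643851, minus strand: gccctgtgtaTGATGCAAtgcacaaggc
Slc7a11, chr3:50443653-50443660, plus strand: ggctgcatgaTGATGCAAattctccagg
Slc7a11, chr3:50443672-50443679, minus strand: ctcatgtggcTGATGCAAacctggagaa
Gars, chr6:55037971-55037978, minus strand: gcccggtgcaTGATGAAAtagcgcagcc
Yars, chr4:129189906-129189913, plus strand: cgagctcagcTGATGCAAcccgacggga

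The whole Asns window is given because Asns is the only member called lower in any comparison of the main fit. It spans chr6:7693160-7693459 (GRCm38.p6, RefSeq), is shown 5′ to 3′ on the minus strand, which is the strand of the gene, and has the core in capitals, beginning at position -23 from the start.
Asns promoter: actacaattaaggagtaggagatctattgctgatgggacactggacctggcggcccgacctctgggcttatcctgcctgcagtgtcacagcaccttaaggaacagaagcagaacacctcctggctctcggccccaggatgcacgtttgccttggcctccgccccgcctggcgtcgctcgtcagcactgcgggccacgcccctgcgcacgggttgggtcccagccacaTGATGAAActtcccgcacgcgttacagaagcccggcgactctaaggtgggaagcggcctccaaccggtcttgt
Asns and Gars carry the core with A at its variable base, and Chac1, Pycr1, Slc7a11 and Yars carry it with C. Among the 9 tested members with the core, 3 rose and 1 fell in the octyl-L2HG group against untreated cells (limma-voom adjusted p under 0.05, as 17.2% and 21.1% of all tested genes did), with a median log2 change of 0.49. Among the 19 tested members whose window lacks it, 10 rose and none fell, with a median of 0.47. The members with the core ran from -2.20 (Asns) to 1.60 (Slc7a11) in that comparison, and those without it from -0.26 (Ddit3) to 2.13 (Ddit4). A match is a description of the letters and not a test of binding. The other 6 members, Eif4ebp1, Slc7a5, Slc7a3, Aldh1l2, Nars and Wars, have no window in the table used.

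**Figure D1:**
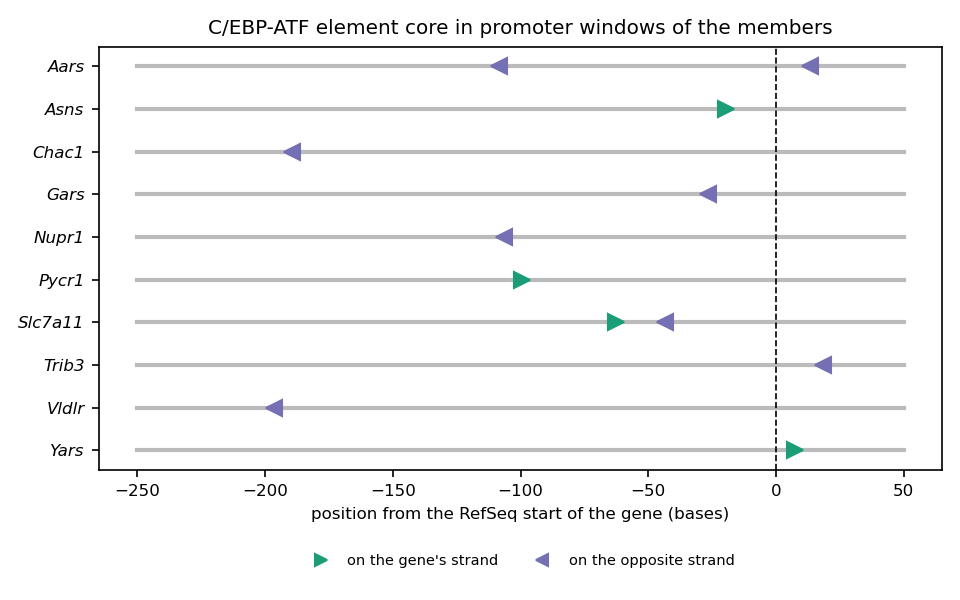
Position of the C/EBP-ATF core in the promoter windows of the 10 members that hold it, in bases from the RefSeq start (dashed line); grey bars are the windows searched, from 250 bases before to 50 after the start, and arrowheads point along the strand on which the core reads 5′ to 3′. The matches lie on both strands and are not at a shared distance from the start; Asns has its match at -23, and Aars and Slc7a11 have a pair of matches.

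The libraries held 24849620 to 46671048 counts, and 18234 genes were tested. Counts were divided by library totals and scaled by trimmed means of M values (TMM), which gave CPM, the counts per 1000000 counts of library size, and every fold change below is from limma-voom over all 9 libraries, called where the Benjamini-Hochberg adjusted p over the 18234 genes was under 0.05. The labelled cell type was checked with markers: all 15 pachytene markers were tested, and they summed to 9992 to 11690 CPM in the octyl-L2HG group, 10349 to 10583 CPM in the oxamate group and 11756 to 12308 CPM in untreated cells. Of these 15, 2 rose and 6 fell in octyl-L2HG against untreated cells (17.2% and 21.1% of all genes did). Against oxamate, 1 rose and 1 fell (4.11% and 15.4%). In oxamate against untreated cells 0 rose and 2 fell, Adam3 and Tbpl1 (5.74% and 3.84%). Sycp3, of the synaptonemal complex, had 206, 238 and 174 CPM in octyl-L2HG libraries A, B and C, 151, 172 and 209.99 in oxamate libraries and 158, 165 and 182 in untreated libraries, and Piwil1, a PIWI protein of the pachytene stage, had 637, 490.4 and 700.1 CPM in octyl-L2HG libraries, 634, 543 and 584 in oxamate libraries and 662, 623 and 665 in untreated libraries. Markers of Sertoli, Leydig, peritubular myoid, endothelial and white blood cells summed to at most 49.4 CPM a list in any library, and those of endothelial cells to 3.66 to 7.13 CPM in the octyl-L2HG group, 6.13 to 7.89 CPM in the oxamate group and 8.48 to 9.59 CPM in untreated cells. The 13 markers of spermatogonia, of which 8 were tested, summed to 59.1 to 66.02 CPM in the octyl-L2HG group, 51.5 to 68.7 CPM in the oxamate group and 45.5 to 56.6 CPM in untreated cells, and their part in the results was not tested. The 22 spermatid markers summed to 2927 to 3924 CPM in the octyl-L2HG group, 4418 to 4990 CPM in the oxamate group and 4963 to 5172 CPM in untreated cells. Of these 22, 21 fell in the octyl-L2HG group against oxamate (median log2 change -2.15) and 21 against untreated cells (median -2.23), whereas 1 fell in oxamate against untreated. In bulk RNA, fewer cells of a type and less RNA per cell cannot be told apart. The part of these spermatid transcripts in the results on the members was not tested.

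Before any treatment effect, the members differed widely in level. Per kilobase of exon (GENCODE M21), the highest in untreated cells were Aars, at 61.6 ± 2.22 CPM per kb, Ddit3, at 47.8 ± 4.02, Gars, at 31.8 ± 4.40, and Slc3a2, at 24.2 ± 4.21 CPM per kb (mean ± SD, n = 3). Aars and Ddit3 did not overlap in this order, nor did Ddit3 and Gars, whereas Gars (27.3 to 36.1 CPM per kb) and Slc3a2 (19.9 to 28.3) did. Atf4 itself was lower, at 14.3 ± 1.30 CPM per kb, and Asns was at 7.97 ± 0.966. The lowest tested members were Aldh1l2, at 0.0301 ± 0.0137, Nupr1, at 0.0774 ± 0.0521, and Pycr1, at 0.0870 ± 0.0621 CPM per kb. At the low end, Trib3, a pseudokinase that inhibits ATF4, had 4, 0 and 4 counts in octyl-L2HG libraries A, B and C, 1, 0 and 2 in oxamate libraries and 1, 2 and 2 in untreated libraries. Cebpb, a C/EBP partner of ATF4, had 2, 2 and 0 counts in octyl-L2HG libraries, 1, 2 and 8 in oxamate libraries and 4, 2 and 5 in untreated libraries. Slc7a3, a cationic amino acid transporter, had 13, 4 and 5 counts in octyl-L2HG libraries, 10, 4 and 13 in oxamate libraries and 4 in each untreated library. These 3 genes were too low to test.

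Log2 changes of the tested members were mostly positive in the treated cells, and Asns fell with octyl-L2HG. In the octyl-L2HG group against untreated cells, 15 of the 33 rose and 1 fell, against 17.2% and 21.1% of all tested genes, and the members' median log2 change was 0.47, against 0.014 for all genes. In oxamate against untreated cells, 4 rose (5.74% of all genes did) and none fell (3.84% of all genes did), with a median of 0.23 against -0.0085. At an unadjusted p under 0.05, 9 members were higher and 3 lower there by limma-voom, against 14% and 12.6% of all genes, and limma-trend called 4 higher and 0 lower, against 5.87% and 3.31%. The unadjusted counts of smaller groups given below are read against the same shares, which were 22.3% higher and 25% lower of all genes in octyl-L2HG against untreated cells and 12.1% higher and 19% lower in octyl-L2HG against oxamate. In the octyl-L2HG group against oxamate, 2 rose and 1 fell, against 4.11% and 15.4% of all genes, with a median of 0.21 against 0.066. These comparisons share libraries, so their counts are not independent of each other. The members were chosen with earlier results of these data known, so their counts and medians are not independent of that choice either.

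The 3 libraries of the octyl-L2HG group lay above all 3 untreated libraries for 15 members and below them for 1, against 24.6% and 26.7% of all genes. Oxamate libraries lay above all untreated libraries for 11 members and below for 3, against 17.3% and 16.7%. Octyl-L2HG libraries lay above all oxamate libraries for 3 members and below for 1, against 14.1% and 19% of all genes. Of the 33 members, 28 had a positive log2 change in octyl-L2HG against untreated cells (51.2% of all genes did), 26 in oxamate against untreated cells (48.9%) and 29 in octyl-L2HG against oxamate (59.4%).

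**Figure D2:**
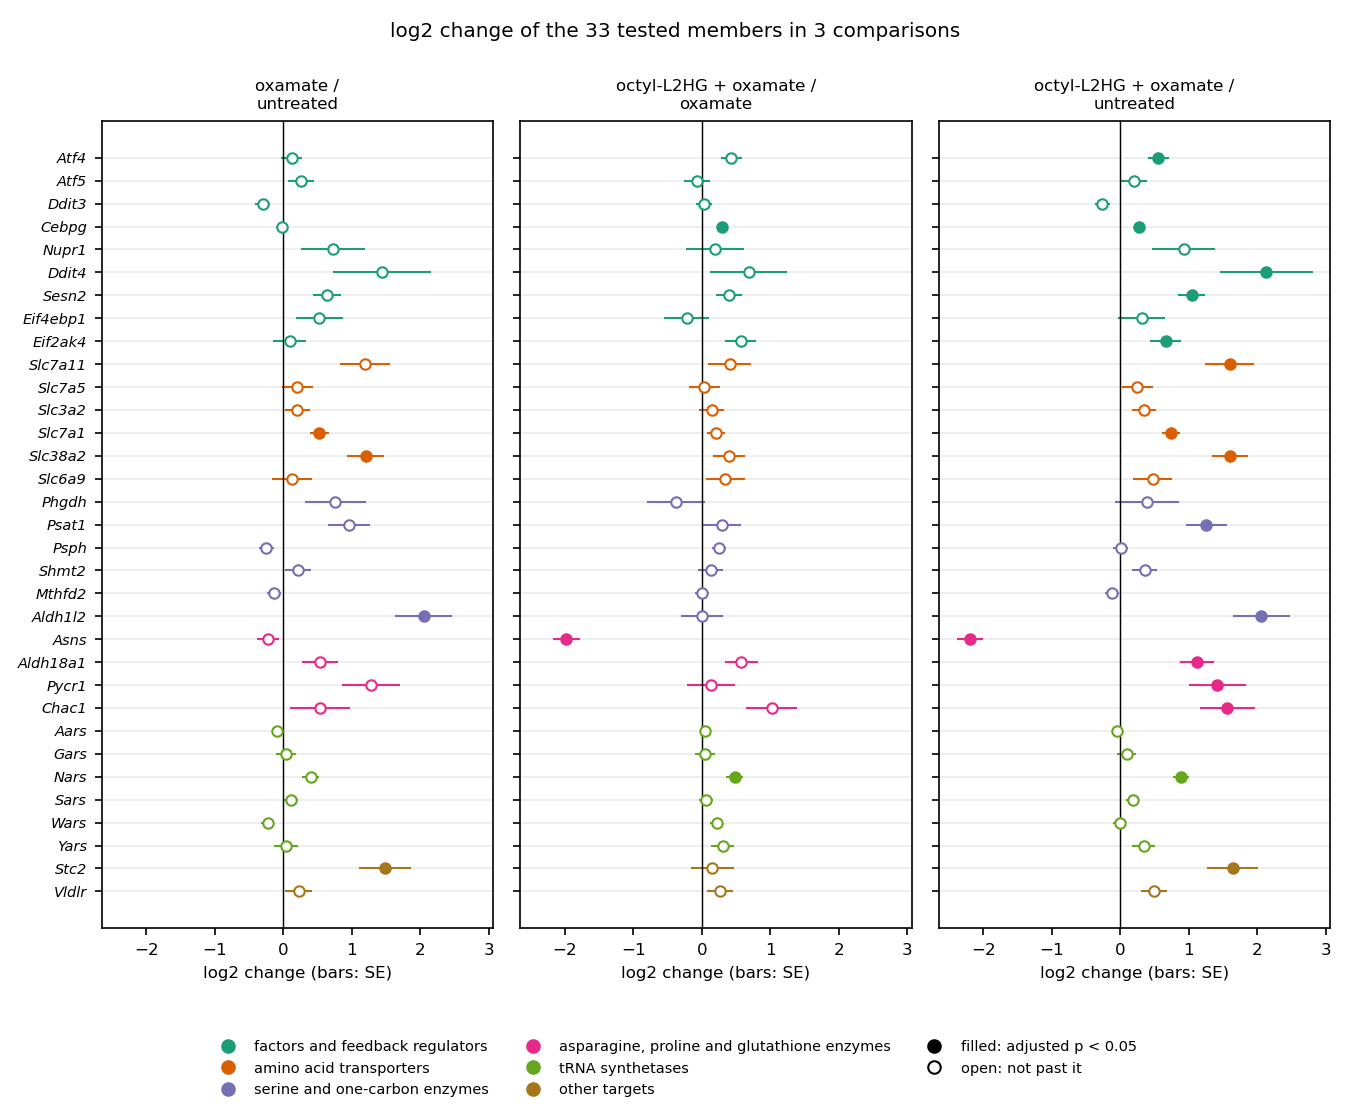
Log2 change of each of the 33 tested members (rows, coloured by role) in 3 comparisons (panels); points are limma-voom estimates, bars are 1 SE, and filled points passed an adjusted p of 0.05. Most points lie right of 0 in all panels, 15 are filled on the right side in octyl-L2HG plus oxamate against untreated, and Asns lies alone at -1.98 and -2.20 in both octyl-L2HG comparisons.

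Same-letter oxamate and untreated libraries deviated from their group means together and were taken as paired. The letter was then fitted as a block over all 9 libraries, so the octyl-L2HG libraries, not taken as paired, also entered its estimates. With this block, 13 members rose and 1 fell in oxamate against untreated cells, against 12.1% and 9.99% of all genes. The 9 members added were Aldh18a1, Eif4ebp1, Nars, Phgdh, Psat1, Pycr1, Sesn2, Slc3a2 and Slc7a11, and the member that fell was Ddit3. Without the block, the count of 4 rises was 0 without oxamate library C, untreated library B or untreated library C. It was 1 without oxamate library A, 2 without oxamate library B and 7 without octyl-L2HG library B. In the same order, 2.32%, 1.95%, 1.2%, 6.52%, 2.46% and 8.53% of all genes were called higher, against 5.74% with all libraries. The count of 15 in octyl-L2HG against untreated cells was 10 without octyl-L2HG library A, where 14.8% of all genes were called higher, against 17.2% with all libraries. In octyl-L2HG against oxamate, the count of 2 was 0 without octyl-L2HG library A or oxamate library B, 1 without oxamate library A, untreated library B or untreated library C, and 5 without octyl-L2HG library B. There, in the same order, 1.38%, 2.47%, 1.92%, 1.6%, 1.45% and 2.45% of all genes were called higher, against 4.11% with all libraries. In the authors' deposited table, 7 members were called higher in octyl-L2HG against oxamate (Aldh18a1, Atf4, Cebpg, Chac1, Nars, Sesn2 and Slc38a2) and 1 lower (Asns), against 3.17% and 9.9% of its 26033 genes with an adjusted p. The authors' deposited table called 16 members higher and 1 lower in octyl-L2HG against untreated cells (12.3% and 14.5% of its genes), and 9 higher and 0 lower in oxamate against untreated cells (5.29% and 3.7%). The 16 included Slc3a2 and Yars but not Eif2ak4. Those 9 were Aldh18a1, Aldh1l2, Nars, Psat1, Sesn2, Slc38a2, Slc7a1, Slc7a11 and Stc2.

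Within every group most members were highest in library A. Library A was the highest of its 3 libraries for 25 of 33 members in the octyl-L2HG group, 22 in the oxamate group and 23 in the untreated group, against 28.4%, 38.8% and 37.7% of all genes. Library B was the lowest for 27, 25 and 19 members in those groups, against 42.2%, 32% and 37.6% of all genes. Relative to the untreated mean, the median member stood at 0.70, 0.28 and 0.51 log2 units in octyl-L2HG libraries A, B and C, at 0.46, 0.14 and 0.29 in oxamate libraries and at 0.19, -0.14 and -0.03 in untreated libraries. The medians thus kept the order A, C, B in all 3 groups and the order octyl-L2HG, oxamate, untreated at every letter. Within letters, 23 members were higher in octyl-L2HG than in untreated cells at all 3 letters (34.3% of all genes were), 19 were higher in oxamate than in untreated cells (30% of genes), and 19 were higher in octyl-L2HG than in oxamate (28.5% of genes). Library B also had the lowest total in each group, with 24849620, 28688933 and 27722221 counts in the octyl-L2HG, oxamate and untreated groups. What the letters mark is not stated in the labels, and the part of depth in this order was not tested.

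**Figure D3:**
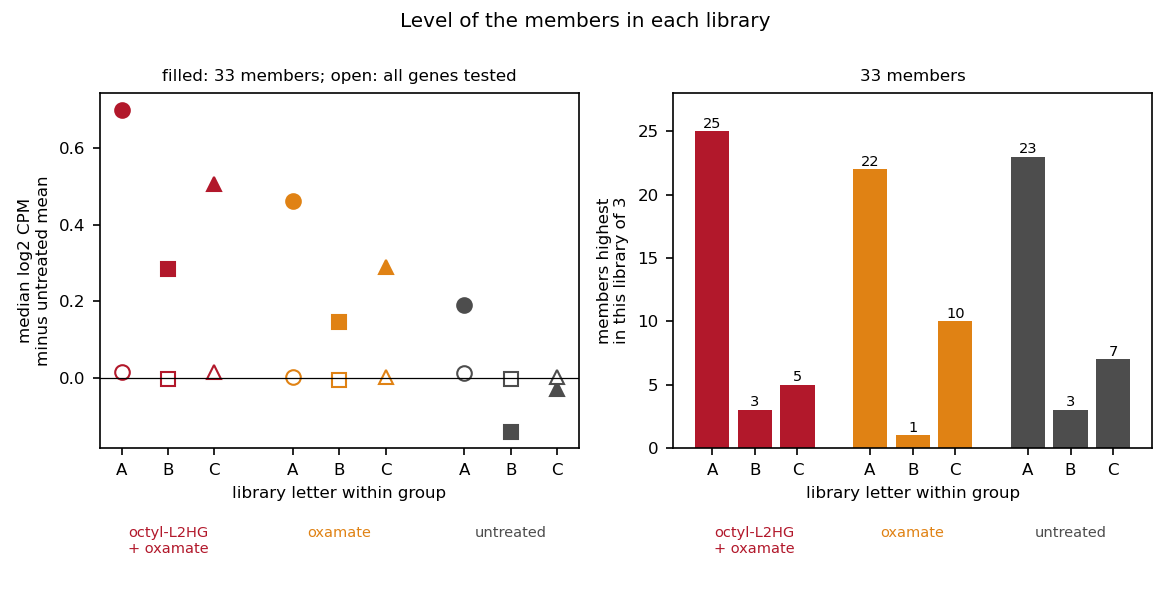
Left, the median over the 33 members (filled) and over all 18234 tested genes (open) of log2 CPM minus the untreated mean, for each library; right, for how many of the 33 members each library was the highest of the 3 in its group. The gene medians lie near 0 in all 9 libraries, the member medians run from 0.70 in octyl-L2HG library A to -0.14 in untreated library B, and library A is highest for 25, 22 and 23 members.

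Among the factors and feedback regulators, 5 of 9 tested rose in octyl-L2HG against untreated cells (Atf4, Cebpg, Ddit4, Sesn2 and Eif2ak4), and none fell (1 was lower at an unadjusted p under 0.05 by limma-voom). Without the block, Cebpg alone rose against oxamate. None passed without it in oxamate against untreated cells, where 1 was higher and 1 lower at an unadjusted p under 0.05 by limma-voom. With the block, 2 were called higher and 1 lower in oxamate against untreated cells. Atf4 (ENSMUSG00000042406, chr15:80255184-80257541, GRCm38) had 58.8, 37.5 and 52.6 CPM in octyl-L2HG libraries A, B and C, 39.2, 32.2 and 38.9 in oxamate libraries and 34.5, 30.3 and 36.3 in untreated libraries. All 3 octyl-L2HG libraries lay above the untreated ones, but library B lay below 2 of the oxamate libraries. Against untreated cells Atf4 rose 1.47-fold in the octyl-L2HG group (log2 change 0.56, SE 0.15, limma-voom adjusted p = 0.0139). Against oxamate the Atf4 value was 0.43, which did not pass without the block (limma-voom adjusted p = 0.0704, and 0.00454 with the letter as a block). In oxamate against untreated cells it was 0.12 (adjusted p = 0.663). In the authors' deposited table Atf4 was called higher in octyl-L2HG against oxamate, with a log2 change of 0.43 and an adjusted p of 0.00295. The rise against untreated cells did not pass without octyl-L2HG library A (adjusted p = 0.0608) or untreated library B (adjusted p = 0.0802), by limma-voom.

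Cebpg, a C/EBP factor that pairs with ATF4, rose by a small amount with octyl-L2HG, with little spread between libraries. Its values were 126, 122 and 117 CPM in octyl-L2HG libraries A, B and C, 94.4, 100.4 and 103 in oxamate libraries and 101, 94.3 and 106 in untreated libraries. The lowest octyl-L2HG library lay above the highest library of both other groups. Cebpg rose 1.23-fold against oxamate (limma-voom adjusted p = 0.0191) and 1.21-fold against untreated cells (adjusted p = 0.0152), while oxamate against untreated gave a log2 change of -0.02 (adjusted p = 0.911). The Cebpg call against oxamate was lost without octyl-L2HG library A or B, oxamate library A or B, or untreated library B or C, and that against untreated cells without octyl-L2HG library A or untreated library A or B, at limma-voom adjusted p-values of 0.0504 to 0.132.

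Sesn2, a sestrin that senses leucine and restrains mTORC1, had 15.7, 9.81 and 13.4 CPM in octyl-L2HG libraries A, B and C, 11.5, 8.83 and 9.45 in oxamate libraries and 7.73, 5.18 and 6.09 in untreated libraries. All treated libraries lay above all untreated ones, and the treated groups overlapped each other. Sesn2 rose 2.06-fold in octyl-L2HG against untreated cells (log2 change 1.04, SE 0.20, limma-voom adjusted p = 0.00158). In oxamate against untreated cells its log2 change was 0.64 (limma-voom adjusted p = 0.0702, and 0.00216 with the letter as a block, which calls it).

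Ddit4, another inhibitor of mTORC1, was low, at 0.841, 0.220 and 0.558 CPM in octyl-L2HG libraries, 0.539, 0.213 and 0.274 in oxamate libraries and 0.137, 0.296 and 0.0300 in untreated libraries. Octyl-L2HG library B lay below untreated library B, so the groups overlapped although the test called Ddit4 higher in octyl-L2HG against untreated cells (4.37-fold, SE 0.68 on the log2 scale, limma-voom adjusted p = 0.0278). Eif2ak4, the gene of the kinase GCN2, had 1.83, 1.72 and 2.004 CPM in octyl-L2HG libraries, 1.13, 0.957 and 1.73 in oxamate libraries and 1.26, 0.963 and 1.26 in untreated libraries. It rose 1.59-fold in octyl-L2HG against untreated cells (limma-voom adjusted p = 0.0370), with no overlap between those libraries. The Eif2ak4 call was lost without any 1 library of either group (limma-voom adjusted p = 0.0519 to 0.149). The Ddit4 call was lost without untreated library A (0.0736) or C (0.133), and Ddit4 was not tested without octyl-L2HG library A or C.

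Ddit3, which encodes CHOP, the stress-induced C/EBP homologue tied to cell death, averaged less than in untreated cells in both treated groups. It had 68.2, 76.7 and 60.7 CPM in octyl-L2HG libraries A, B and C, 59.9, 68.1 and 71.6 in oxamate libraries and 74.02, 84.99 and 86.7 in untreated libraries. The oxamate libraries all lay below the untreated ones, and octyl-L2HG library B overlapped them. The log2 change was -0.30 in oxamate against untreated cells (limma-voom adjusted p = 0.108, and 0.0398 with the letter as a block, which calls the fall) and -0.26 in octyl-L2HG against untreated cells (adjusted p = 0.0758). Ddit3 shares 68 exonic bases with Mars on the opposite strand, and the use of strand in the counting is not stated in the labels.

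The remaining regulators did not pass the test in any comparison without the block. Atf5, a factor related to ATF4, had 3.30, 2.33 and 3.91 CPM in octyl-L2HG libraries, 3.37, 3.23 and 3.45 in oxamate libraries and 2.42, 3.15 and 2.94 in untreated libraries. Atf5 overlaps Nup62 and Il4i1 on the opposite strand by 82 exonic bases. Nupr1, a stress-induced chromatin protein, had 0.336, 0.264 and 0.304 CPM in octyl-L2HG libraries, 0.269, 0.248 and 0.274 in oxamate libraries and 0.0686, 0.185 and 0.330 in untreated libraries, each from 3 to 16 counts. Eif4ebp1, a brake on cap-dependent translation, had 3.64, 2.11 and 2.74 CPM in octyl-L2HG libraries, 5.12, 2.48 and 2.77 in oxamate libraries and 3.57, 1.78 and 1.74 in untreated libraries, and its log2 change in oxamate against untreated cells was 0.53 (limma-voom adjusted p = 0.353, and 0.0224 with the letter as a block).

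**Figure D4:**
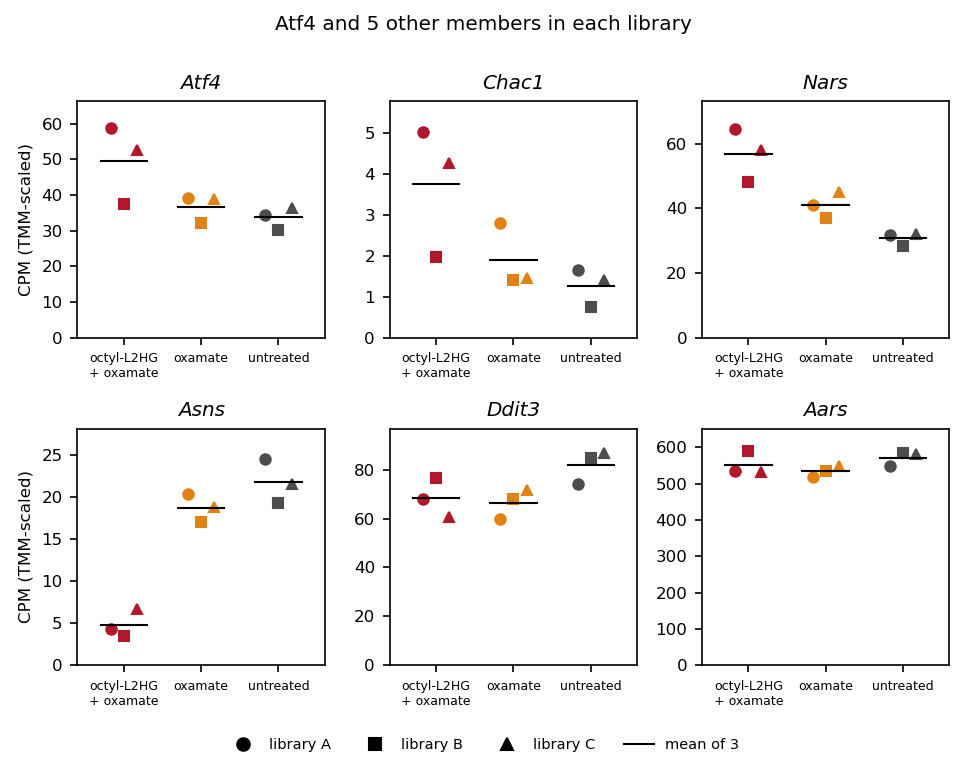
CPM (TMM-scaled) of Atf4 and 5 other members in each library, with groups from left to right octyl-L2HG plus oxamate, oxamate and untreated; marker shapes are the library letters and black lines are means of 3. Nars is highest in octyl-L2HG, next in oxamate and lowest in untreated libraries, with no overlap, Asns is low in the 3 octyl-L2HG libraries (3.48 to 6.65 CPM), and Aars stays between 517 and 589 CPM in all 9.

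Amino acid transporters were higher in treated cells for a subset of the family. Of 6 tested, 3 rose in octyl-L2HG against untreated cells, 2 in oxamate against untreated cells and none in octyl-L2HG against oxamate, where 0 were higher and 0 lower at an unadjusted p under 0.05 by limma-voom. Slc38a2, which encodes SNAT2, a sodium-coupled carrier of small neutral amino acids, had 32.9, 16.2 and 27.01 CPM in octyl-L2HG libraries A, B and C, 23.5, 15.7 and 18.5 in oxamate libraries and 10.4, 6.89 and 7.62 in untreated libraries. All 6 treated libraries lay above the highest untreated library, and the treated groups overlapped. Slc38a2 rose 3.04-fold in octyl-L2HG against untreated cells (log2 change 1.60, SE 0.26, limma-voom adjusted p = 0.000575) and 2.30-fold in oxamate against untreated cells (log2 change 1.20, SE 0.27, adjusted p = 0.0202). The oxamate call was lost without oxamate library A or C or untreated library B or C (limma-voom adjusted p = 0.0535 to 0.0942).

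Slc7a1, which encodes the cationic amino acid transporter CAT1, had 38.5, 28.7 and 40.9 CPM in octyl-L2HG libraries A, B and C, 31.9, 29.6 and 32.3 in oxamate libraries and 23.9, 20.2 and 20.7 in untreated libraries. Its treated libraries also lay above all untreated ones. Slc7a1 rose 1.67-fold in octyl-L2HG against untreated cells (limma-voom adjusted p = 0.00114) and 1.44-fold in oxamate against untreated cells (adjusted p = 0.0335). Without any 1 library of the oxamate or untreated groups, the Slc7a1 call in oxamate was lost (limma-voom adjusted p = 0.0530 to 0.139).

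Slc7a11, the light chain of the cystine and glutamate exchanger xCT, showed the largest change of the family beside Slc38a2 in octyl-L2HG against untreated cells. It had 10.9, 5.46 and 7.66 CPM in octyl-L2HG libraries, 8.33, 4.29 and 5.86 in oxamate libraries and 4.09, 2.59 and 1.59 in untreated libraries, with no overlap between treated and untreated libraries. It rose 3.03-fold in octyl-L2HG against untreated cells (limma-voom adjusted p = 0.00429). Oxamate against untreated cells gave a log2 change of 1.19 (SE 0.37, adjusted p = 0.0638, and 0.00187 with the letter as a block).

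The heavy chain Slc3a2, which carries both Slc7a11 and Slc7a5 to the membrane, had 128, 83.8 and 115 CPM in octyl-L2HG libraries, 119, 81.6 and 95.6 in oxamate libraries and 99.998, 70.3 and 85.6 in untreated libraries, an overlapping order in which library A was the highest each time. Its log2 change in oxamate against untreated cells was 0.21 (limma-voom adjusted p = 0.512, and 0.0412 with the letter as a block). In octyl-L2HG against untreated cells it was 0.35 (limma-voom adjusted p = 0.147, and 0.00130 with the letter as a block). The authors' deposited table called Slc3a2 higher in octyl-L2HG against untreated cells, with an adjusted p of 0.00122. Slc7a5, the light chain of the leucine carrier LAT1, had 25.4, 15.9 and 26.2 CPM in octyl-L2HG libraries, 28.3, 16.5 and 22.1 in oxamate libraries and 22.96, 15.7 and 18.4 in untreated libraries, and passed no test. Slc6a9, the glycine transporter GLYT1, had 2.75, 1.67 and 2.59 CPM in octyl-L2HG libraries, 2.05, 1.81 and 1.73 in oxamate libraries and 2.45, 1.81 and 1.05 in untreated libraries, and passed none either. Slc6a9 shares 1429 exonic bases with Ccdc24 on the opposite strand, which averaged 8.82 ± 0.357, 8.33 ± 0.503 and 8.35 ± 0.569 CPM (SD, n = 3).

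**Figure D5:**
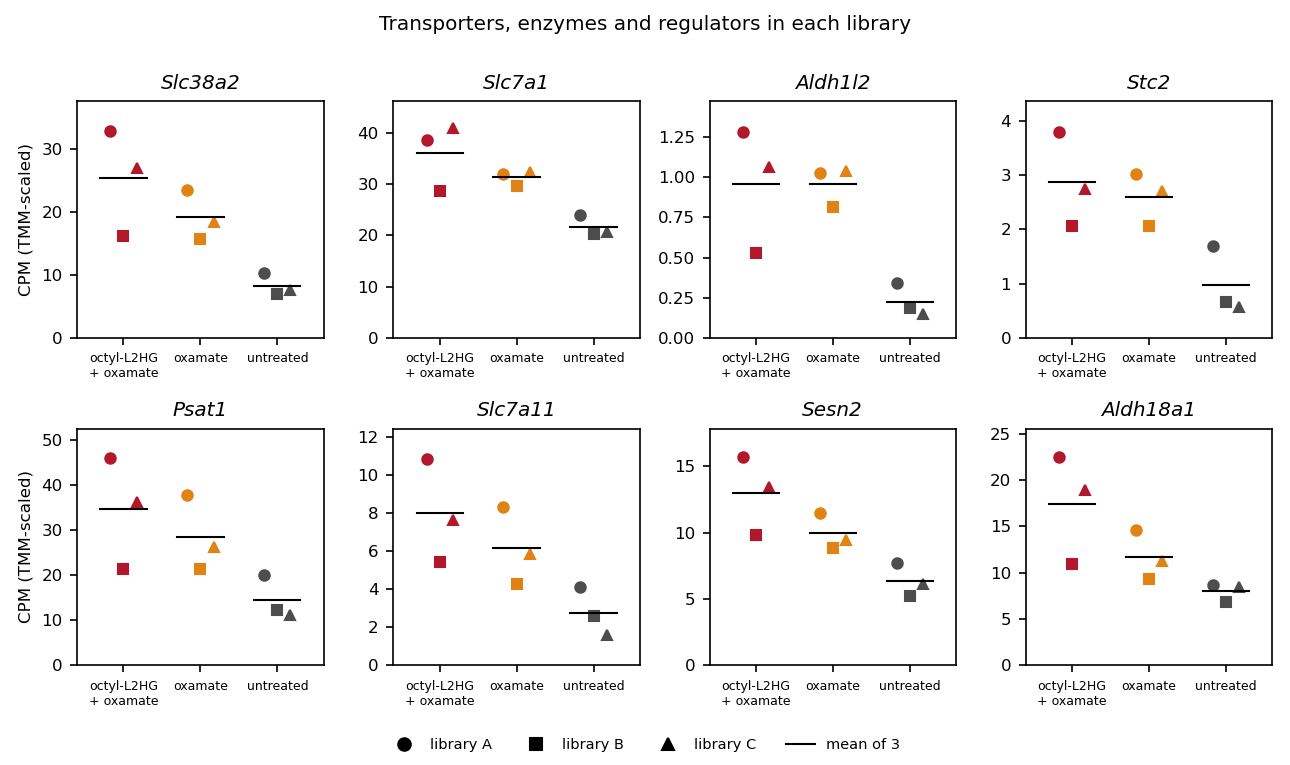
CPM (TMM-scaled) of 8 members in each library, with groups from left to right octyl-L2HG plus oxamate, oxamate and untreated; marker shapes are the library letters and black lines are means of 3. In each panel all 3 untreated libraries lie below all 6 treated ones, and library A (circles) is the highest of most groups; Slc38a2, for one, has 15.7 CPM or more in treated libraries and 10.4 CPM or less in untreated ones.

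In the serine and one-carbon pathway, Psat1 and Aldh1l2 rose in octyl-L2HG against untreated cells and Aldh1l2 rose in oxamate against untreated cells, whereas Psph, Shmt2, Mthfd2 and Phgdh did not pass the test without the block. Aldh1l2, a mitochondrial enzyme that oxidises 10-formyltetrahydrofolate, had 1.28, 0.528 and 1.07 CPM in octyl-L2HG libraries A, B and C, 1.02, 0.815 and 1.04 in oxamate libraries and 0.343, 0.185 and 0.150 in untreated libraries. The treated libraries lay above all untreated ones, at low levels (5 to 15 counts per untreated library). Aldh1l2 rose 4.17-fold in octyl-L2HG against untreated cells (limma-voom adjusted p = 0.00237) and 4.15-fold in oxamate against untreated cells (SE 0.42 on the log2 scale, adjusted p = 0.0139), and the log2 change between the treated groups was 0.0096. The oxamate call was lost without oxamate library C or untreated library B or C (limma-voom adjusted p = 0.0526 to 0.0823). Aldh1l2 shares 1056 exonic bases, or 14.1% of its exons, with D10Wsu102e on the opposite strand. D10Wsu102e averaged 46.95 ± 3.17, 35.3 ± 2.48 and 34.4 ± 0.710 CPM in the octyl-L2HG, oxamate and untreated groups (SD, n = 3). Its log2 change was 0.03 in oxamate against untreated cells, where Aldh1l2 rose. D10Wsu102e rose in octyl-L2HG against untreated cells (0.44, limma-voom adjusted p = 0.00236), where Aldh1l2 also rose. It rose against oxamate too (0.41, adjusted p = 0.00672), where Aldh1l2 was not called. The part of D10Wsu102e reads in the Aldh1l2 counts was not tested.

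Psat1, the transaminase of serine synthesis, had 46.1, 21.4 and 36.3 CPM in octyl-L2HG libraries A, B and C, 37.8, 21.3 and 26.2 in oxamate libraries and 19.96, 12.3 and 11.2 in untreated libraries. The lowest treated library lay above the highest untreated one by a narrow margin, and within each letter both treated libraries were higher. Psat1 rose 2.39-fold in octyl-L2HG against untreated cells (log2 change 1.26, SE 0.31, limma-voom adjusted p = 0.00691). In oxamate against untreated cells it had a log2 change of 0.97 (adjusted p = 0.0729, and 0.0010 with the letter as a block).

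Phgdh, which catalyses the first step of serine synthesis, had 1.26, 0.484 and 0.736 CPM in octyl-L2HG libraries A, B and C, 1.75, 0.709 and 0.932 in oxamate libraries and 1.05, 0.407 and 0.480 in untreated libraries. The groups overlapped, and Phgdh passed only in oxamate against untreated cells with the letter as a block (log2 change 0.76, limma-voom adjusted p = 0.309 without the block and 0.0125 with it). The pseudogene entry Phgdh-ps1 stood at 0.0420, 0.0440 and 0.0254 CPM in octyl-L2HG libraries, 1.13, 0.532 and 0.849 in oxamate libraries and 1.14, 1.19 and 1.11 in untreated libraries, and fell in octyl-L2HG against oxamate (log2 change -4.04, adjusted p = 0.000146, from 4 counts in all against 88). Reads of copies that share sequence may be divided between such entries, so the value of Phgdh is uncertain.

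Psph, the phosphatase that ends serine synthesis, had 22.4, 21.2 and 17.9 CPM in octyl-L2HG libraries, 17.2, 17.6 and 16.7 in oxamate libraries and 20.97, 19.8 and 20.2 in untreated libraries. All 3 oxamate libraries lay below all libraries of both other groups, by a narrow margin for octyl-L2HG library C, and no comparison passed without the block. Psph shares 452 exonic bases with Cct6a on the opposite strand. Shmt2, the mitochondrial serine hydroxymethyltransferase, had 12.3, 7.83 and 10.04 CPM in octyl-L2HG libraries, 10.7, 7.44 and 9.65 in oxamate libraries and 9.01, 7.26 and 7.41 in untreated libraries. Mthfd2, the mitochondrial enzyme that follows it in folate metabolism, had 32.1, 26.7 and 28.2 CPM in octyl-L2HG libraries, 30.9, 28.5 and 27.7 in oxamate libraries and 34.2, 31.8 and 29.3 in untreated libraries, with log2 changes of -0.13 in oxamate against untreated cells and -0.13 in octyl-L2HG against untreated cells. Neither Shmt2 nor Mthfd2 was called without the block.

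Of the 4 enzymes of asparagine, proline and glutathione metabolism, 3 rose in octyl-L2HG against untreated cells and Asns fell. None passed without the block in oxamate against untreated cells (1 higher and 0 lower at an unadjusted p under 0.05 by limma-voom). With the block, 2 were called higher there. Asns, the glutamine-dependent asparagine synthetase whose promoter is printed above (ENSMUSG00000029752, chr6:7675169-7693254, GRCm38), had 4.35, 3.48 and 6.65 CPM in octyl-L2HG libraries A, B and C, 20.4, 17.02 and 18.8 in oxamate libraries and 24.6, 19.3 and 21.5 in untreated libraries. The highest octyl-L2HG library was far below the lowest library of both other groups. Asns fell 3.94-fold against oxamate (log2 change -1.98, SE 0.20, limma-voom adjusted p = 6.83e-05) and 4.59-fold against untreated cells (log2 change -2.20, SE 0.19, adjusted p = 1.87e-05). In oxamate against untreated cells its log2 change was -0.22 (adjusted p = 0.420). The authors' deposited table gives -1.97 with an adjusted p of 1.78e-26 for Asns in octyl-L2HG against oxamate. Over all 18 alternative settings tried, the Asns change in octyl-L2HG against oxamate ran from -2.24 to -1.86 and passed each time. This fall was in the same libraries as that of the spermatid markers, such as Prm1, a protamine, which had 3.85, 3.56 and 14.1 CPM in octyl-L2HG libraries, 33.6, 31.2 and 51.5 in oxamate libraries and 60.5, 52.1 and 71.9 in untreated libraries, and Acrv1, an acrosomal protein, which had 15.1, 17.7 and 29.8 CPM in octyl-L2HG libraries, 48.8, 45.8 and 48.1 in oxamate libraries and 47.02, 39.03 and 39.9 in untreated libraries. Over the whole list, the 22 spermatid markers summed to 2927, 3924 and 3373 CPM in octyl-L2HG libraries A, B and C, a sum in which abundant markers weigh most. Among these libraries, Asns and Prm1 were lowest in B and highest in C, and Acrv1 was lowest in A and highest in C. The part of spermatid transcripts in the Asns fall was not tested.

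The proline enzymes had the opposite direction. Aldh18a1, which makes the first intermediate of proline synthesis from glutamate, had 22.5, 10.96 and 18.9 CPM in octyl-L2HG libraries A, B and C, 14.6, 9.29 and 11.3 in oxamate libraries and 8.67, 6.78 and 8.49 in untreated libraries, so that all treated libraries lay above all untreated ones. Aldh18a1 rose 2.17-fold in octyl-L2HG against untreated cells (log2 change 1.12, SE 0.25, limma-voom adjusted p = 0.00437). Its log2 change in oxamate against untreated cells was 0.54 (adjusted p = 0.215, and 0.0112 with the letter as a block). Pycr1, the reductase that ends proline synthesis, was low, at 1.09, 0.616 and 0.786 CPM in octyl-L2HG libraries, 0.862, 0.674 and 0.767 in oxamate libraries and 0.617, 0.259 and 0.150 in untreated libraries, and rose 2.67-fold in octyl-L2HG against untreated cells (limma-voom adjusted p = 0.0195). Untreated library A lay as high as octyl-L2HG library B. The call was lost without octyl-L2HG library A or untreated library B or C (limma-voom adjusted p = 0.0713 to 0.115). Pycr1 in oxamate against untreated cells had a log2 change of 1.28 (adjusted p = 0.0800, and 0.0259 with the letter as a block).

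Chac1, a glutathione-degrading enzyme induced by ATF4 and CHOP, had 5.02, 1.98 and 4.26 CPM in octyl-L2HG libraries A, B and C, 2.80, 1.42 and 1.45 in oxamate libraries and 1.65, 0.741 and 1.41 in untreated libraries. The octyl-L2HG libraries lay above all untreated ones, and library B lay below oxamate library A. Chac1 rose 2.95-fold in octyl-L2HG against untreated cells (log2 change 1.56, SE 0.40, limma-voom adjusted p = 0.00962). The log2 change against oxamate was 1.02, which did not pass without the block (limma-voom adjusted p = 0.0830, and 0.00188 with the letter as a block). In oxamate against untreated cells it was 0.54 (adjusted p = 0.466). Asns and Chac1, both with the core element in their promoter windows, thus differed in direction between octyl-L2HG and untreated cells.

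Of the 6 tRNA synthetases, Nars alone passed the test without the block, in both octyl-L2HG comparisons. None passed without it in oxamate against untreated cells (1 higher and 1 lower at an unadjusted p under 0.05 by limma-voom). With the block, 1 was called higher there. Nars, the asparaginyl-tRNA synthetase (chromosome 18), had 64.7, 48.1 and 58.1 CPM in octyl-L2HG libraries A, B and C, 40.96, 37.01 and 44.99 in oxamate libraries and 31.9, 28.5 and 32.2 in untreated libraries. The 3 groups did not overlap, in the order octyl-L2HG, oxamate, untreated, which held for Nars alone among the 33 members and for 4.07% of all genes. Nars rose 1.39-fold in octyl-L2HG against oxamate (log2 change 0.48, SE 0.12, limma-voom adjusted p = 0.0131) and 1.85-fold against untreated cells (log2 change 0.89, SE 0.12, adjusted p = 0.000178). Between oxamate and untreated cells the log2 change was 0.41 (adjusted p = 0.0618, and 0.00644 with the letter as a block, which calls it). The call against oxamate was lost without octyl-L2HG library A (limma-voom adjusted p = 0.0699) or oxamate library B (0.0589). In octyl-L2HG cells, transcripts of the enzyme that charges tRNA with asparagine were therefore higher and those of the enzyme that makes asparagine were lower than in either other group.

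The other synthetases, each of which loads its own amino acid onto tRNA, did not pass the test in any comparison without the block. Aars had 535, 589 and 534 CPM in octyl-L2HG libraries A, B and C, 517, 535 and 549.7 in oxamate libraries and 548, 583 and 583 in untreated libraries, and its log2 change in octyl-L2HG against untreated cells was -0.05 (SE 0.0700, limma-voom adjusted p = 0.602). Aars shares 1326 exonic bases with Exosc6 on the same strand, and the division of reads between them is uncertain. Gars had 118, 90.2 and 109 CPM in octyl-L2HG libraries, 115, 83.3 and 109 in oxamate libraries and 113, 85.1 and 99.9 in untreated libraries, a difference between letters larger than that between groups. Yars had 52.1, 33.8 and 50.8 CPM in octyl-L2HG libraries, 44.7, 31.4 and 35.2 in oxamate libraries and 39.4, 32.4 and 35.8 in untreated libraries, with octyl-L2HG libraries A and C above all others and library B among the untreated ones. The authors' deposited table called Yars higher in octyl-L2HG against untreated cells, with an adjusted p of 0.0276. For Yars the log2 change in octyl-L2HG against untreated cells was 0.34 (limma-voom adjusted p = 0.137, and 0.0111 with the letter as a block). Sars had 31.1, 34.1 and 29.9 CPM in octyl-L2HG libraries, 29.3, 28.1 and 32.9 in oxamate libraries and 29.8, 26.5 and 26.9 in untreated libraries, with a log2 change of 0.18 in that comparison (adjusted p = 0.179). Wars had 45.8, 39.3 and 44.5 CPM in octyl-L2HG libraries, 40.3, 37.5 and 34.3 in oxamate libraries and 43.2, 42.6 and 45.2 in untreated libraries. The oxamate libraries of Wars lay below all untreated ones, at a log2 change of -0.23 that did not pass (limma-voom adjusted p = 0.153).

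Of the other 2 targets, Stc2 rose and Vldlr did not pass without the block. Stc2, a secreted stanniocalcin, had 3.80, 2.07 and 2.74 CPM in octyl-L2HG libraries A, B and C, 3.02, 2.06 and 2.71 in oxamate libraries and 1.69, 0.667 and 0.570 in untreated libraries, with all treated libraries above all untreated ones. Stc2 rose 3.12-fold in octyl-L2HG against untreated cells (limma-voom adjusted p = 0.00449) and 2.80-fold in oxamate against untreated cells (log2 change 1.49, SE 0.37, adjusted p = 0.0317). The Stc2 call in oxamate was lost without oxamate library A, B or C or untreated library B or C (limma-voom adjusted p = 0.0540 to 0.143). Vldlr, a lipoprotein receptor, had 3.49, 3.12 and 2.94 CPM in octyl-L2HG libraries, 3.10, 2.48 and 2.41 in oxamate libraries and 2.74, 2.37 and 1.74 in untreated libraries, and its log2 change in octyl-L2HG against untreated cells was 0.49 (limma-voom adjusted p = 0.0648).

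Related genes outside the 36 were counted from lists of the same pathways. Their falls in the octyl-L2HG group were in the same libraries in which 21 of 22 spermatid markers fell. For all lists, the part of spermatid transcripts in those falls was not tested. Each list's counts are read against the shares of all tested genes called, which were 17.2% higher and 21.1% lower in octyl-L2HG against untreated cells, 5.74% and 3.84% in oxamate against untreated cells, and 4.11% and 15.4% in octyl-L2HG against oxamate. Among 18 tested genes of other ATF4-responsive processes, 3 rose and 3 fell in octyl-L2HG against untreated cells, 3 rose and 3 fell in oxamate against untreated cells, and 2 rose and 2 fell in octyl-L2HG against oxamate. Xpot, the exportin that carries tRNA out of the nucleus, averaged 158 ± 6.87, 132 ± 1.92 and 93.6 ± 2.67 CPM in the octyl-L2HG, oxamate and untreated groups (SD, n = 3) and rose in each comparison (limma-voom adjusted p = 0.0210 against oxamate, 2.48e-05 for octyl-L2HG against untreated and 0.00338 for oxamate against untreated). Txnip, an arrestin-like regulator of glucose uptake, averaged 57.9 ± 3.54, 46.8 ± 0.879 and 73.02 ± 6.22 CPM. It fell in oxamate against untreated cells (log2 change -0.64, limma-voom adjusted p = 0.00306) and rose in octyl-L2HG against oxamate (0.31, adjusted p = 0.0312). Vegfa, a growth factor, rose in both comparisons with untreated cells, at log2 changes of 1.52 with octyl-L2HG and 0.93 with oxamate (limma-voom adjusted p = 0.000573 and 0.0458). Klf4 and Nfe2l2, a pair of transcription factors, fell in octyl-L2HG against oxamate by 1.45 and 1.39 on the log2 scale (limma-voom adjusted p = 0.000407 and 0.00186). Bbc3, a pro-apoptotic BH3-only gene, rose (log2 change 1.96, limma-voom adjusted p = 0.0363) and Ero1l, an oxidase of the endoplasmic reticulum, fell (-0.54, adjusted p = 0.0342) in oxamate against untreated cells.

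Upstream of ATF4, among 16 tested kinases and parts of the eIF2 machinery, 4 rose and 1 fell in octyl-L2HG against untreated cells, 1 rose and 1 fell in octyl-L2HG against oxamate, and none passed in oxamate against untreated cells (2 higher and 3 lower at an unadjusted p under 0.05 by limma-voom, and 3 and 1 called with the letter as a block). Ppp1r15b, which brings phosphatase 1 to phosphorylated eIF2, averaged 51.1 ± 8.10, 36.9 ± 2.96 and 30.9 ± 2.38 CPM in the octyl-L2HG, oxamate and untreated groups (SD, n = 3), and rose against oxamate (limma-voom adjusted p = 0.0160) and against untreated cells (0.000740). Eif2ak1, the gene of the kinase HRI, and Eif2a, an alternative initiation factor, rose 1.30-fold and 1.46-fold in octyl-L2HG against untreated cells (limma-voom adjusted p = 0.0159 and 0.00559). Gcn1, the activator of GCN2, fell 1.24-fold in that comparison (adjusted p = 0.0135). Eif2s3y, a Y-linked subunit of eIF2, fell 1.68-fold in octyl-L2HG against oxamate (adjusted p = 0.00446).

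Among partner factors of the C/EBP, ATF and CREB families, 5 of 17 tested rose and 2 fell in octyl-L2HG against untreated cells, 3 rose and none fell in oxamate against untreated cells, and 2 rose and 2 fell in octyl-L2HG against oxamate. No member of this list was lower at an unadjusted p under 0.05 in oxamate against untreated cells by limma-voom, and none was called lower with the letter as a block. Creb1, the cAMP-responsive factor, averaged 42.2 ± 3.28, 32.2 ± 4.48 and 21.5 ± 1.71 CPM in the octyl-L2HG, oxamate and untreated groups (SD, n = 3) and rose in all 3 comparisons (limma-voom adjusted p = 0.0335 against oxamate, 0.000101 for octyl-L2HG against untreated and 0.0176 for oxamate against untreated). Atf1, its close relative, rose 1.29-fold in oxamate against untreated cells, and Jun, an AP-1 subunit, 1.59-fold (limma-voom adjusted p = 0.0173 and 0.0174). Atf7 rose 1.37-fold in octyl-L2HG against oxamate (adjusted p = 0.0145). Creb3l4, a membrane-bound factor known from spermatids, fell 3.02-fold and Jund 4.81-fold in octyl-L2HG against oxamate (limma-voom adjusted p = 0.000127 and 0.000500), in the same libraries in which 21 of 22 spermatid markers fell. The part of spermatid transcripts in these falls was not tested.

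Among 8 tested other enzymes of proline, asparagine and aspartate metabolism, Glul, glutamine synthetase, had the largest fall. It averaged 1.02 ± 1.03 CPM in the octyl-L2HG group, 10.5 ± 1.998 CPM in the oxamate group and 16.99 ± 1.60 CPM in untreated cells (SD, n = 3), ran from 0.220 to 2.181 CPM within the octyl-L2HG group, and fell 13.1-fold against oxamate (log2 change -3.72, SE 0.46, limma-voom adjusted p = 0.000186) and 21.4-fold against untreated cells (adjusted p = 3.59e-05). Transcripts of Glul and of Asns, for which glutamine is the amide donor, were both lower in octyl-L2HG cells. A link between these falls, and the part of spermatid transcripts in the Glul fall, were not tested. Oat, ornithine aminotransferase, rose 2.03-fold in octyl-L2HG against untreated cells and 1.63-fold in oxamate against untreated cells (limma-voom adjusted p = 0.000873 and 0.0357). In all, 1 gene of this list rose and 1 fell in octyl-L2HG against untreated cells, none rose and 1 fell against oxamate (0 were higher there at an unadjusted p under 0.05 by limma-voom), and 1 rose and none fell in oxamate against untreated cells (3 lower at an unadjusted p under 0.05, and 1 called lower with the letter as a block).

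The other serine and one-carbon enzymes moved in both directions. Of 13 tested, 4 rose and 2 fell in octyl-L2HG against untreated cells, 2 rose and 1 fell in octyl-L2HG against oxamate, and 1 rose and 1 fell in oxamate against untreated cells. Gldc, the decarboxylase of the glycine cleavage system, averaged 13.6 ± 0.597, 11.7 ± 0.484 and 22.1 ± 0.779 CPM in the octyl-L2HG, oxamate and untreated groups (SD, n = 3) and fell in both treated groups against untreated cells (limma-voom adjusted p = 0.000186 with octyl-L2HG and 0.000967 with oxamate). Amt, the aminomethyltransferase of the same system, rose 1.47-fold in octyl-L2HG against oxamate (adjusted p = 0.0266). Mtfmt, which formylates the initiator tRNA of mitochondria, averaged 11.3 ± 1.67, 8.30 ± 0.739 and 5.35 ± 0.256 CPM and rose in all 3 comparisons (limma-voom adjusted p = 0.0332 against oxamate, 0.000127 for octyl-L2HG against untreated and 0.0226 for oxamate against untreated). Mthfd1, the cytosolic folate enzyme, fell 1.81-fold in octyl-L2HG against oxamate (adjusted p = 0.0221).

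Of 12 tested other amino acid transporters, 1 rose and 4 fell in octyl-L2HG against untreated cells, none rose and 2 fell against oxamate (2 higher and 3 lower at an unadjusted p under 0.05 by limma-voom), and none passed in oxamate against untreated cells (1 higher and 0 lower at an unadjusted p under 0.05, and 1 and 0 called with the letter as a block). Slc1a4, a neutral amino acid exchanger, averaged 24.4 ± 7.18, 18.5 ± 4.30 and 13.6 ± 2.73 CPM in the octyl-L2HG, oxamate and untreated groups (SD, n = 3) and rose 1.80-fold in octyl-L2HG against untreated cells (limma-voom adjusted p = 0.0147). Slc6a6, the taurine transporter, fell 2.09-fold and Slc1a5, a glutamine exchanger, 3.99-fold in octyl-L2HG against oxamate (adjusted p = 0.00126 and 0.00632 by limma-voom). Slc36a1, a lysosomal proton-coupled transporter, fell 1.93-fold in octyl-L2HG against untreated cells (adjusted p = 0.0412).

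Among 14 tested other cytosolic synthetases, 3 rose and 2 fell in octyl-L2HG against untreated cells, 1 fell and none rose against oxamate (1 higher at an unadjusted p under 0.05 by limma-voom), and 1 rose and none fell in oxamate against untreated cells (2 lower at an unadjusted p under 0.05, and 1 called lower with the letter as a block). Tars, Lars and Iars were the 3 rises against untreated cells, at 1.86-, 1.34- and 1.25-fold, and Vars fell 2.32-fold there and 1.94-fold against oxamate (limma-voom adjusted p = 5.69e-05 and 0.000450). Among 17 mitochondrial synthetases, 2 rose and 2 fell in octyl-L2HG against untreated cells, 1 rose and none fell against oxamate, and 1 fell and none rose in oxamate against untreated cells. In octyl-L2HG against oxamate, 0 of them were lower at an unadjusted p under 0.05 by limma-voom, and in oxamate against untreated cells 1 was higher at an unadjusted p under 0.05 and none with the letter as a block. Nars2, the mitochondrial asparaginyl-tRNA synthetase, rose 1.76-fold in octyl-L2HG against untreated cells and Aars2 fell 1.33-fold (limma-voom adjusted p = 0.00420 and 0.00501), with Sars2 2.02-fold lower and Rars2 1.34-fold higher (adjusted p = 0.0189 and 0.0260).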

How the data were processed

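RNA from 9 libraries (3 groups of 3) was prepared as a stranded poly-A library, per the labels' protocols. The authors deposited whole-number read counts per gene, and 6255 of 55471 rows held a question mark in place of a count and were left out. The submitters' processing notes name the build GRCm38 and the tools TopHat2 2.1.1, HTSeq 0.6.0, cutadapt 1.18, DESeq2 1.22.2 and bcl2fastq 2.18.0.12. Whether the counting used strand is not stated there. The deposited table also holds fold changes on the log2 scale and p-values with adjustment, made by the authors and quoted only where named, and 9 normalized columns that were not used.

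Genes were kept where at least 3 libraries reached the CPM equal to 10 counts in a library of median size and the total was at least 15 counts. Counts were scaled by TMM (trims of 30% and 5%, written out in R) and tested with limma-voom (limma 3.58.1, R 4.3.3, offset 0.5, robust) on all 9 libraries, with Benjamini-Hochberg adjustment over the 18234 genes tested and a threshold of 0.05. The code was tested on simulated counts with known changes. Library totals ran from 24849620 to 46671048 counts, and replicate pairs differed by more than counting noise. Fold changes of genes with few counts depend on the offset and are less precise.

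The letters A, B and C, shared by the groups, were checked for pairing: over all genes, the residuals of 2 libraries with 1 letter, each taken from its own group mean, correlated at 0.40, 0.40 and 0.29 between the oxamate and untreated groups, at 0.31, 0.39 and 0.044 between octyl-L2HG and oxamate, and at 0.17, 0.34 and 0.063 between octyl-L2HG and untreated. With every value above 0.1, the first pair of groups was taken as paired. Members and lists were chosen with earlier results of these data known. Named were all members that passed a test, Atf4, Atf5, Ddit3, Trib3, Chac1, Asns, Ddit4, Sesn2 and the synthetases in any case, up to 4 genes per pathway list and comparison by smallest p, and 4 germ cell markers. The remaining members are given for completeness. Other scalings, filters, tests, library weights and left-out libraries were tried.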

Additional observations from a re-analysis of the deposited data

How the results depend on the processing

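No called member and no median of the members changed direction under any of the alternatives tried, and scaling moved the median of all genes by under 0.1 on the log2 scale. The 15 rises in octyl-L2HG against untreated cells numbered 10 to 19 over all settings, and leaving out a library gave 10 to 16 (10.7% to 18.1% of all genes). In oxamate against untreated cells, the 4 rises became 9 with sample quality weights (12.3% of all genes). They became 8 with only the libraries of those groups in the fit (8.3%), and 0 to 7 when 1 library was left out (1.2% to 8.53%). Falls there numbered 2 with quality weights (10.6% of all genes fell). In octyl-L2HG against oxamate, the 2 rises became 0 with library totals in place of TMM (2.2% of all genes) and 1 with no filter on low counts (0.851%). They became 6 with quality weights (4.1%), 0 with only the libraries of those groups (0.825%), and 0 to 5 when 1 library was left out (1.38% to 3.83%). In octyl-L2HG against untreated cells, the 1 fall became 2 with library totals (20.4% of all genes fell). It also became 2 with at least 1 CPM in 3 libraries (24.4%) or with quality weights (22%). Leaving out 1 library gave 1 to 2 falls (16.9% to 21.6%). The added fall was Ddit3 each time. The cause was not tested. Over these 18 alternatives, 7.59% to 24.4% of all tested genes were called higher and 10.7% to 25.6% lower in octyl-L2HG against untreated cells, 1.2% to 12.3% and 0.628% to 10.6% in oxamate against untreated cells, and 0.825% to 10.9% and 7.85% to 17.6% in octyl-L2HG against oxamate. Asns passed in both octyl-L2HG comparisons under all 18 alternatives. Some members said above not to pass without the block, which holds for the main fit, were called in other settings without it. In octyl-L2HG against untreated cells, Shmt2, Vldlr and Yars rose with quality weights. Nupr1 rose there without untreated library C and Slc3a2 without octyl-L2HG library B. Psph rose in octyl-L2HG against oxamate without octyl-L2HG library C. Members near or under 1 CPM (Ddit4, Nupr1, Pycr1, Aldh1l2 and Phgdh) rest on few counts, which limits their precision.

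With the letter as a replicate block, 13 members rose and 1 fell in oxamate against untreated cells, against 12.1% and 9.99% of all genes, where the pairing was taken as given. That fit held all 9 libraries, the octyl-L2HG libraries among them. In octyl-L2HG against oxamate, same-letter residuals correlated at 0.31 and 0.39 for A and B but at 0.044 for C, so pairing was not taken as given. There the block gave 9 rises (Aldh18a1, Atf4, Chac1, Psph, Sesn2, Slc38a2 and Yars added) and 1 fall, against 10.9% and 17.6% of all genes. Pairing was also not taken as given in octyl-L2HG against untreated cells (0.17, 0.34 and 0.063). The block gave 2 falls there (Ddit3 added) beside 19 rises (Shmt2, Slc3a2, Vldlr and Yars added), against 25.6% lower and 24.4% higher of all genes.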
